A study of Homo sapiens with 10 samples.

Results

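The genes described here are 35 genes of the NRF2 and glutathione antioxidant system, chosen by gene symbol from a table of 62709 entries with values. They cover regulators of the NRF2 pathway, quinone and haem enzymes, the synthesis and use of glutathione, the thioredoxin system, catalase and superoxide dismutases, suppliers of NADPH, ferritin and a subunit of the cystine transporter. Total RNA was sequenced from H441, a long-established cell line from a human lung adenocarcinoma, kept in RPMI medium with 10% fetal bovine serum. TET1, which oxidises 5-methylcytosine and so takes part in DNA demethylation, had been removed or added. The 10 libraries fell into 4 groups. WT (n = 3) was the wild-type line without treatment. KO (n = 3) had TET1 knocked out by CRISPR-Cas9 in the wild-type line, and the labels do not say whether it was 1 clone. OE (n = 2) had received full-length human TET1 on a plasmid by transient transfection, so its cells also received plasmid DNA. The libraries titled Lipo (n = 2) were labelled as untreated wild type. The word Lipo is not explained in the labels, so what the Lipo cells received is not known here. Whether the replicates of a group came from different cultures is likewise not stated, and p-values measure only the spread between these libraries, which may be technical.

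NRF2, encoded by NFE2L2, is a transcription factor that its partner KEAP1 holds in the cytoplasm and sends for degradation. Oxidants and electrophiles modify KEAP1, and NRF2 then accumulates, pairs with a small MAF protein such as MAFF or MAFG, and binds antioxidant response elements near its target genes. Much of this control acts on NRF2 protein, which RNA levels do not show. The targets include enzymes that make glutathione, use it against peroxides and electrophiles, reduce thioredoxin and regenerate NADPH. In lung adenocarcinoma the pathway is often active through mutations in KEAP1 or NFE2L2.

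The core of the antioxidant response element, TGACNNNGC, was searched on both strands in the 250 bases before each transcription start in RefSeq's promoter windows (GRCh38.p14). Of the 35 genes, 28 had a window, and 10 of these (35.7%) held the core in at least 1 window, against 3609 of 27305 genes (13.2%). The windows of 5 of the genes called in at least 1 comparison, and of GCLM, are shown to place the element beside the values that follow. Each is printed 5′ to 3′ with the core in capitals.
GSTP1 (chr11:67583730-67583770, plus strand, 66 bases before the start): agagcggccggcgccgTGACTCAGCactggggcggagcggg
SLC3A2 (chr11:62881646-62881686, plus strand, 37 bases before the start): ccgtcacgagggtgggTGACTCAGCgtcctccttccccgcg
TXNRD1 (chr12:104215664-104215704, plus strand, 99 bases before the start): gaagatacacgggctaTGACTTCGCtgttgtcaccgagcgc
GSTA4 (chr6:52995285-52995309, minus strand, 9 bases before the start): acccagccgggaccgcTGACCTGGC
MAFF (chr22:38201856-38201896, minus strand, opposite to the gene, 122 bases before the start): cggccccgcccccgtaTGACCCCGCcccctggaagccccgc
GCLM (chr1:93909440-93909480, plus strand, opposite to the gene, 34 bases before the start): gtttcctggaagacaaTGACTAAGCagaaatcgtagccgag
The GSTP1 and SLC3A2 cores share the letters TGACTCAGC, as does the core of ME1, and these contain the AP-1 motif TGACTCA, so the letters do not separate the motifs. The distances are counted from a RefSeq transcript start, which differs from the first base of the GENCODE 29 gene given further on for some genes. The cores of GSTP1, SLC3A2, GSTA4 and MAFF lie inside the GENCODE gene, that of GCLM lies across its start and the TXNRD1 core shown lies outside it. Another TXNRD1 core, not shown, lies inside the gene. A match is a description of the letters and not evidence of binding. Enhancers farther from the start were not searched.

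Ferritin stores iron in a shell of heavy (FTH1) and light (FTL) chains. Its transcripts carry an iron response element, a hairpin through which iron regulatory proteins block translation when iron is low. The hairpins are shown because ferritin RNA and ferritin protein can therefore move apart, and only RNA was measured. Both were found in GENCODE 29 transcripts on GRCh38, with the loop in capitals.
FTH1 (chr11:61967575-61967601, minus strand, in 10 of 12 transcripts): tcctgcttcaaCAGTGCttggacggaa
FTL (chr19:48965336-48965362, plus strand, in its only transcript, 1 of 1): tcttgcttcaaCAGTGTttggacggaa

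Libraries held 20994462 to 25981097 reads, and mitochondrially encoded genes took 4.74% to 8.72% of them, most in Lipo (8.04% and 8.72%). TET1 had 2, 7 and 0 reads in WT 1, 2 and 3 and 4, 0 and 8 in KO 1, 2 and 3, so read counts could not check the knockout label. Lipo 2 and 3 had 0 and 1 TET1 reads, and OE 1 and 2 had 17883 and 20805. WT 1 stood apart from the other WT libraries, with a chi-square per degree of freedom of 40.6 and 43.9 against 6.17 between WT 2 and WT 3. Among the KO libraries it was 37.8 to 62.1, with no 1 library apart from the others. Between the Lipo libraries it was 5.98 and between the OE libraries 4.79. The tests below share 1 estimate of the spread over all groups. They may therefore understate the spread in KO and overstate it in Lipo and OE. Markers of the line (EPCAM, keratins, NKX2-1 and surfactant genes) summed to 7601 to 10680 CPM in every group, mostly from keratins. None of these 9 markers was called higher in KO, OE or Lipo. SFTPB fell in KO (3.93-fold), in Lipo against WT (2.56-fold) and in OE against Lipo (2.55-fold), CDH1 fell 1.68-fold in KO, and SFTA3 fell 2.102-fold in OE. Immune markers summed to 0.485 to 4.09 CPM, with PTPRC and CD3E at or near 0. Of 5 fibroblast markers, DCN and PDGFRA had no reads, and COL1A1 carried most of a sum that was 70.9 to 77.7 CPM in KO, 177 to 289 in WT, 169 to 183 in Lipo and 343 to 351 in OE. Endothelial markers summed to 82.6 to 117 CPM, nearly all from KDR, with PECAM1 under 1 CPM. In bulk RNA, fewer cells of a kind and less RNA per cell cannot be told apart.

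Levels below are CPM, reads scaled to the TMM-adjusted library size, and changes are log2 fold changes fitted by edgeR to all 10 libraries, with standard errors (SE). A change was called at a Benjamini-Hochberg adjusted p under 0.05 over all 15832 genes tested. Of the 35 genes, 34 were tested. GSTM3, a mu-class glutathione transferase, had no reads except for 4 in Lipo 3 and did not pass the filter on low counts.

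Per kb of exon, ferritin stood above every other member in WT. Exon length here joins the exons of all annotated transcripts of a gene, from 878 bases for FTL to 9507 for TKT and 16493 for SOD2. It can exceed the main transcript, so the order of members depends in part on it. FTH1 reached 1050.0 ± 92.5 CPM per kb and FTL 1010.0 ± 76.8 (SD, n = 3), which do not differ beyond their spread. TXNRD1, the cytosolic thioredoxin reductase, followed at 249 CPM per kb with GPX4, the peroxidase of lipid hydroperoxides, at 239, PRDX1 at 191, GPX3 at 185 and TXN at 166. TKT (105), NQO1 (99.1) and GSTP1 (81.7) came next. At the other end stood GSTA4 at 3.31, GPX2 at 0.392 and SRXN1 at 0.183 CPM per kb. SRXN1, the enzyme that reactivates overoxidised peroxiredoxins, shares 85.0% of its exonic bases with another gene model on the same strand (AL121758.1), so its level is uncertain. The exons of FTH1 overlap BEST1 on the opposite strand over 62.4% of their length, and the strand setting of the counting was not given in the sources. Smaller overlaps were 24.9% of PRDX1 with MMACHC, 17.7% of NQO1 and 14.1% of PRDX2 with antisense genes, and 17.6% of NFE2L2 with a gene on the same strand. Processed pseudogenes took 5.68% as many reads as FTH1 and 4.56% as many as FTL.

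**Figure D1:**
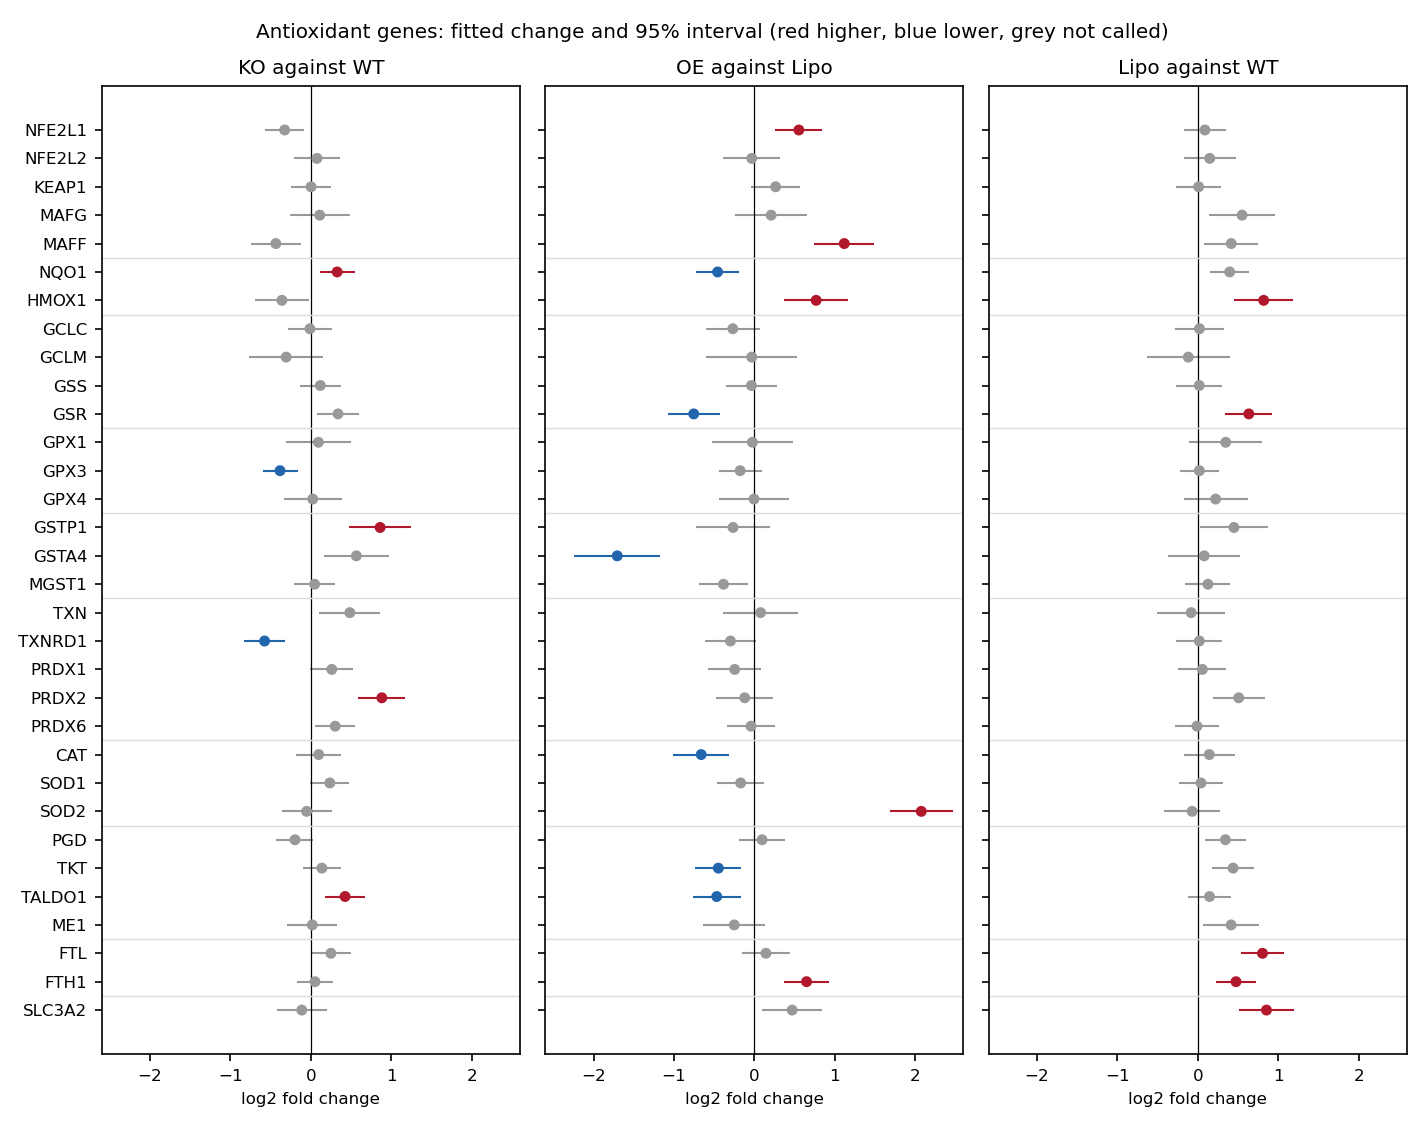
Fitted log2 fold change (horizontal axis) with its 95% interval for 32 members in KO against WT, OE against Lipo and Lipo against WT, in red where called higher, blue where called lower and grey where not called. GPX2 and SRXN1 were tested but are left out because of their low counts and wide intervals, and GSTM3 was not tested. SOD2 in OE reaches 2.07 and GSTA4 in OE -1.71, the farthest from 0, while the KO changes stay between -0.58 and 0.88.

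To ask what the labelled loss of TET1 changed, KO was compared with WT. Of the 34 members tested, 4 were higher in KO (11.8%, against 5.13% of all genes) and 2 were lower (5.88%, against 7.45%). The peroxiredoxin PRDX2 and the glutathione transferase GSTP1 rose most, by 1.84-fold and 1.82-fold, and the pentose phosphate enzyme TALDO1 and the quinone reductase NQO1 rose by 1.34-fold and 1.25-fold. The thioredoxin reductase TXNRD1 fell 1.49-fold and the plasma glutathione peroxidase GPX3 fell 1.30-fold. The median change over the 34 members was 0.06 on the log2 scale, against 0.003 over all genes.

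None of the 5 regulators passed the edgeR test in KO, where 2 had an unadjusted p under 0.05 and were lower (14.2% of all genes were), although DESeq2 called MAFF. NFE2L2 stood at 194, 143 and 161 CPM in WT 1 to 3 and at 196, 182 and 147 in KO 1 to 3, which overlap (log2 0.08, SE 0.14, 95% interval -0.21 to 0.37). KEAP1 stood at 55.9 ± 2.59 CPM in WT and 56.0 ± 5.57 in KO (SD, n = 3 each), with an interval of -0.25 to 0.25. The small MAF gene MAFF was lower in each KO library (29.1, 34.3 and 35.2 CPM) than in any WT library (54.3, 37.4 and 41.8), with an adjusted p = 0.0620 by edgeR. NFE2L1, the NRF2 relative that controls proteasome genes, likewise had 277, 339 and 281 CPM in KO against 355, 392 and 378 in WT, with an adjusted p = 0.0702 by edgeR.

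NQO1 (ENSG00000181019, chromosome 16, 69706996 to 69726951, minus strand, GRCh38), which reduces quinones and is the usual reporter of NRF2 activity, had 335, 327 and 306 CPM in WT and 413, 379 and 421 in KO. All KO libraries were above all WT libraries (log2 0.33, SE 0.10, edgeR adjusted p = 0.0484). The call was at the threshold and was lost without any 1 of 8 libraries, all except WT 1 and KO 2 (adjusted p = 0.0628 to 0.186). HMOX1, which breaks down haem, had 23.2, 26.6 and 26.5 CPM in WT and 15.6, 19.3 and 24.6 in KO. These overlap, and the difference did not pass (log2 -0.36, SE 0.16, edgeR adjusted p = 0.155).

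Genes that make and recycle glutathione were not called in KO. The catalytic and modifier subunits of glutamate-cysteine ligase, the first enzyme of the path, had log2 differences of -0.01 (GCLC, SE 0.13) and -0.31 (GCLM, SE 0.22), and glutathione synthetase (GSS) had 0.12 (SE 0.12). GCLM was at 64.9 CPM in WT 1 and at 34.98 and 35.8 in the other WT libraries, a spread that exceeds the difference between the groups. GSR, which returns oxidised glutathione to its reduced form, was 74.4, 89.8 and 89.3 CPM in WT and 103, 120.1 and 97.7 in KO. The groups did not overlap, but the adjusted p was 0.0901.

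Among glutathione peroxidases, GPX3 (ENSG00000211445, chromosome 5, 151020438 to 151028993, plus strand) fell from 599, 574 and 579 CPM in WT to 416, 450.3 and 477 in KO. Every KO library was below every WT library (log2 -0.38, SE 0.10, edgeR adjusted p = 0.0222). The call was lost without WT 2, WT 3, OE 1 or OE 2 (adjusted p = 0.0504 to 0.0722). GPX4, which protects membranes from lipid peroxidation, varied from 368 to 640.2 CPM among KO libraries alone, and its interval ran from -0.33 to 0.38.

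GSTP1 (ENSG00000084207, chromosome 11, 67583595 to 67586656, plus strand) joins glutathione to electrophiles and is the main transferase of many lung tumours. It had 126, 166 and 176 CPM in WT and 204, 279 and 368 in KO. The groups did not overlap, though KO 3 was well above KO 1 (log2 0.86, SE 0.18, edgeR adjusted p = 0.00525). GSTA4, which detoxifies lipid aldehydes, was also higher in each KO library (12.5, 10.2 and 9.22 CPM) than in WT (7.40, 6.91 and 7.27) but did not pass (adjusted p = 0.0629). MGST1, a membrane-bound transferase, had an interval of -0.20 to 0.30.

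In the thioredoxin system, 1 of 6 members rose and 1 fell, against 5.13% and 7.45% of all genes. TXNRD1 (ENSG00000198431, chromosome 12, 104215779 to 104350305, plus strand), which uses NADPH to reduce thioredoxin, fell from 1701, 1723 and 1589 CPM in WT to 1202, 1242 and 919 in KO. The lowest WT library was well above the highest KO library (log2 -0.58, SE 0.12, edgeR adjusted p = 0.00546). PRDX2 (ENSG00000167815, chromosome 19, 12796820 to 12801859, minus strand), a cytosolic peroxidase that thioredoxin recycles, rose from 70.4, 68.0 and 63.7 CPM to 98.4, 129.7 and 144. All KO libraries were above all WT libraries (log2 0.88, SE 0.14, edgeR adjusted p = 5.87e-04). Thioredoxin itself (TXN) was 221, 183 and 167 CPM in WT and 352, 192 and 254 in KO, which overlap (adjusted p = 0.0901).

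The transaldolase gene TALDO1 (ENSG00000177156, chromosome 11, 747329 to 765024, plus strand), of the non-oxidative pentose phosphate pathway, rose from 124, 123 and 129 CPM to 164, 149.6 and 191 in KO. The groups did not overlap (log2 0.43, SE 0.11, edgeR adjusted p = 0.0238), but the call was lost without WT 2, WT 3, Lipo 2 or Lipo 3 (adjusted p = 0.0522 to 0.101). Catalase, both superoxide dismutases, both ferritin chains and SLC3A2 were not called in KO. FTH1 had 2113 to 2357 CPM in KO and 2004 to 2347 in WT, and SOD2 had 53.5 to 73.7 in KO and 61.4 to 81.5 in WT.

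The calls of GSTP1, PRDX2 and TXNRD1 held under all 21 alternatives run for this comparison. Those of NQO1, GPX3 and TALDO1 were lost in a fit of WT and KO alone (edgeR adjusted p = 0.145, 0.107 and 0.0854). Cytosolic ribosomal protein genes moved in the same libraries, with 22 of 29 tested higher in KO, 0 lower and a median change of 0.57, and their summed level was 26950.0 to 35910.0 CPM in KO against 19930.0 to 21810.0 in WT. Their part in the KO values of the antioxidant genes was not tested. Of the NF-kB target genes, 3 of 15 tested were lower in KO (20%, against 7.45% of all genes). These were TNFAIP3, CXCL1 and ICAM1, in which WT 1 stood well above WT 2 and WT 3. In CPM, WT 1 had 66.1 against 29.8 and 29.8 for TNFAIP3, 8.40 against 1.11 and 1.27 for CXCL1, and 828 against 567 and 588 for ICAM1. How far the count rests on WT 1 was not tested.

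**Figure D2:**
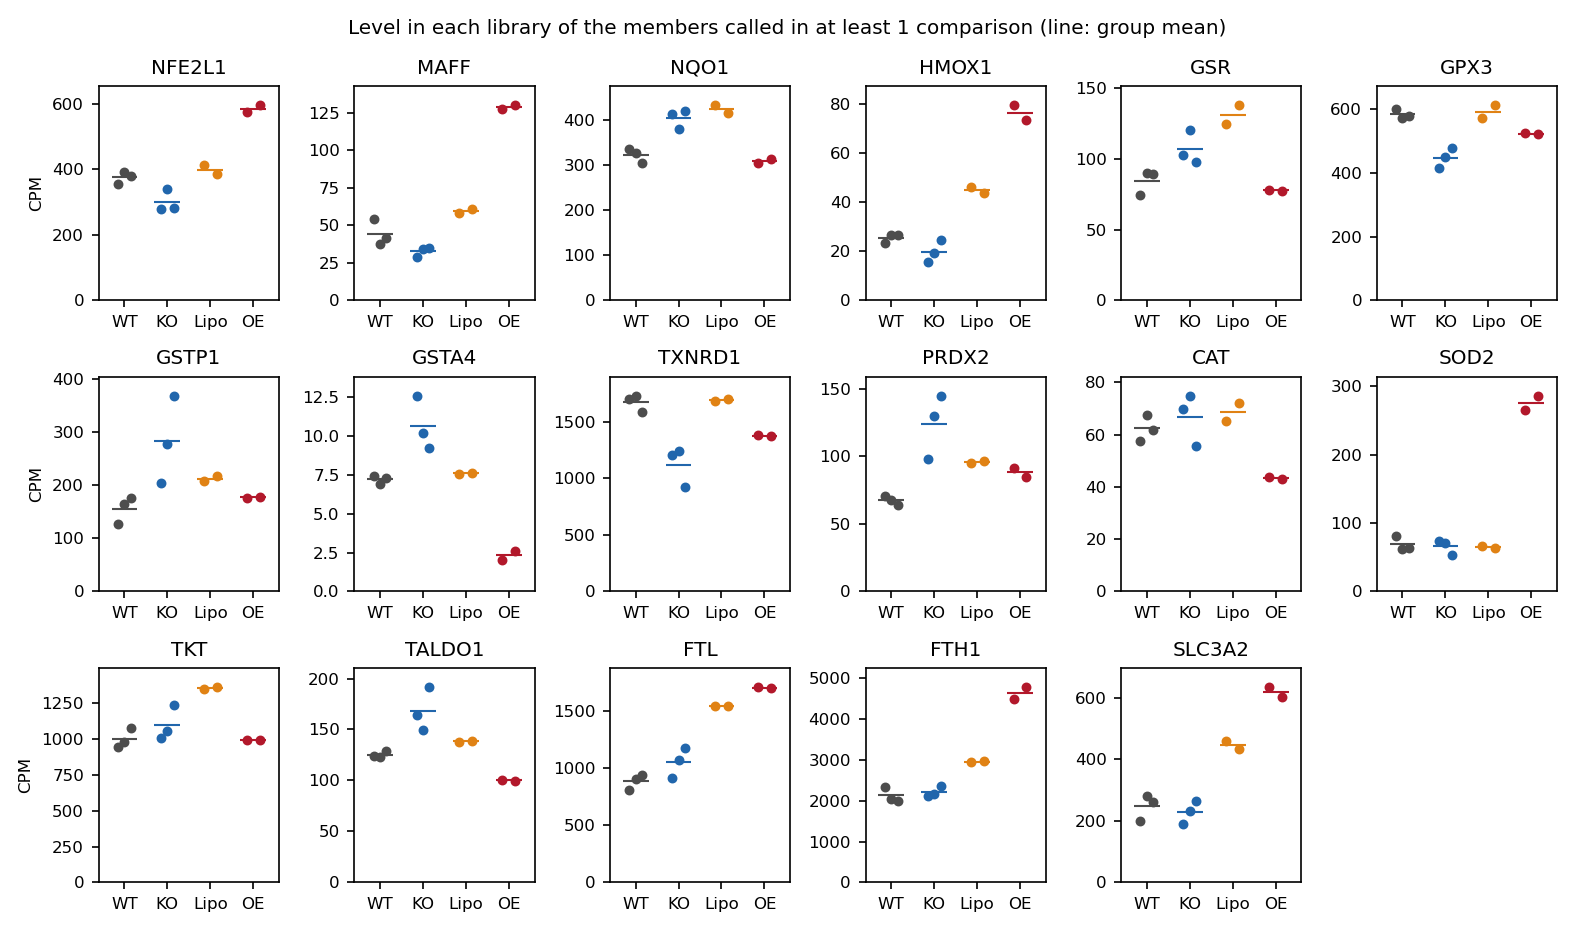
Level in CPM (linear vertical axis from 0) of the 17 members called in at least 1 comparison, with 1 point per library for WT, KO, Lipo and OE and a line at the group mean. FTH1, HMOX1 and SLC3A2 step up from WT to Lipo to OE, SOD2 is high in OE alone, GSR and TKT are high in Lipo and near WT in OE, and TXNRD1 and GPX3 are lowest in KO.

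To ask what the TET1 transfection changed, OE was compared with Lipo, taken as its control because of its separate title. OE cells also received plasmid DNA, and what Lipo cells received is not known. The parts of TET1 and of transfection therefore cannot be told apart, with Lipo or WT as control. Of the 34 members, 5 were higher in OE (14.7%, against 6.79% of all genes) and 6 were lower (17.6%, against 5.53%). Mitochondrial superoxide dismutase SOD2 rose 4.21-fold, MAFF 2.17-fold, HMOX1 1.70-fold, FTH1 1.57-fold and NFE2L1 1.47-fold. GSTA4 fell 3.26-fold, GSR 1.69-fold, catalase (CAT) 1.58-fold, TALDO1 1.38-fold, NQO1 1.37-fold and TKT 1.36-fold. The median over members was -0.08, against -0.01 over all genes, and 11 of the 34 fitted changes were above 0 (49.3% of all genes were). Mitochondrially encoded genes took 4.74% and 4.89% of reads in OE against 8.04% and 8.72% in Lipo, and the part of that difference in these values was not tested. Since OE had 2 libraries and so did its control, each value rests on 4 libraries, with the spread estimated from all 10. In a fit of these 4 libraries alone, 9 members were higher and 14 lower, as were 2944 and 2720 of all genes. TXNRD1, GPX3, PRDX1, MGST1, GSTP1 and SOD1 were then among the members called lower. With 2 libraries on each side, groups often fail to overlap without any change, so non-overlap alone says little here.

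The regulators split. MAFF (ENSG00000185022, chromosome 22, 38200767 to 38216511, plus strand) stood at 57.9 and 60.6 CPM in Lipo and at 127 and 129.8 in OE, more than any other library of the study (log2 1.12, SE 0.18, edgeR adjusted p = 6.57e-04). NFE2L1 (ENSG00000082641, chromosome 17, 48048329 to 48061487, plus strand) stood at 413 and 385 CPM in Lipo and 576 and 594 in OE. Its groups did not overlap (log2 0.55, SE 0.14, edgeR adjusted p = 0.0161), and the call was lost without any 1 of the 4 libraries compared (adjusted p = 0.0961 to 0.183). NFE2L2 did not pass, with 179.7 and 188 CPM in Lipo and 183 and 177 in OE (interval -0.39 to 0.32), nor did KEAP1 (0.26, SE 0.14, adjusted p = 0.271) or MAFG.

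HMOX1 and NQO1, 2 commonly used readouts of NRF2, went opposite ways. HMOX1 (ENSG00000100292, chromosome 22, 35380361 to 35394214, plus strand) was 46.1 and 43.6 CPM in Lipo and 79.5 and 73.4 in OE (log2 0.77, SE 0.19, edgeR adjusted p = 0.0152). NQO1 was 432 and 416 CPM in Lipo and 305 and 313 in OE (log2 -0.46, SE 0.12, edgeR adjusted p = 0.0267). Neither pair of groups overlapped. Both calls were lost without any 1 of the 4 libraries compared, and that of NQO1 also without WT 2 (adjusted p = 0.0725 to 0.148 for HMOX1 and 0.0501 to 0.202 for NQO1).

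Of the genes of glutathione synthesis and recycling, GSR (ENSG00000104687) alone was called, at 124 and 138 CPM in Lipo and 78.2 and 77.3 in OE (log2 -0.75, SE 0.15, edgeR adjusted p = 0.00464). Its OE libraries were within the WT range of 74.4 to 89.8 CPM. The call was lost without Lipo 3, OE 1 or OE 2 (adjusted p = 0.0577 to 0.0693). GCLC was 75.8 and 73.7 CPM in Lipo and 63.0 and 61.1 in OE and did not pass (log2 -0.27, SE 0.16, adjusted p = 0.309). In the fit of all 10 libraries, none of the 4 glutathione peroxidases was called, and 0 had an unadjusted p under 0.05 (13.5% of all genes were higher and 12.7% lower). So few genes cannot set the family apart from all genes.

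GSTA4 (ENSG00000170899, chromosome 6, 52977948 to 52995378, minus strand) had the strongest fall of any member, from 7.58 and 7.61 CPM in Lipo to 2.02 and 2.62 in OE (log2 -1.71, SE 0.25, edgeR adjusted p = 3.90e-04). The other 8 libraries all held between 6.91 and 12.5 CPM. MGST1 was lower too, at 364 and 352 CPM in OE against 444 and 491 in Lipo, without passing (adjusted p = 0.0981). GSTP1 did not pass either (log2 -0.27, SE 0.22, adjusted p = 0.482).

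SOD2 (listed as ENSG00000291237 and matched by symbol to chromosome 6, 159669057 to 159745186, minus strand), which turns superoxide into hydrogen peroxide in mitochondria, rose from 66.6 and 64.0 CPM in Lipo to 265 and 285 in OE (log2 2.07, SE 0.18, edgeR adjusted p = 1.87e-06). WT and KO libraries stood at 53.5 to 81.5 CPM. CAT (ENSG00000121691, chromosome 11, 34438925 to 34472062, plus strand), which breaks hydrogen peroxide down in peroxisomes, fell from 65.4 and 72.3 CPM to 43.9 and 43.1 (log2 -0.66, SE 0.16, edgeR adjusted p = 0.0159), and its call was lost without any 1 of the 4 libraries (adjusted p = 0.0599 to 0.148). The cytosolic enzyme SOD1 did not pass, at 159 and 170.2 CPM in Lipo and 144 and 148 in OE (interval -0.47 to 0.13). In the fit of all 10 libraries, none of the 6 members of the thioredoxin system was called, and 0 had an unadjusted p under 0.05. Of all genes, 13.5% were higher and 12.7% lower at that threshold, so 6 genes cannot set the system apart. TXNRD1 was 1680.5 and 1703 CPM in Lipo and 1379.7 and 1374 in OE (log2 -0.30, SE 0.15, adjusted p = 0.217).

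The pentose phosphate enzymes TKT and TALDO1 fell together. TKT (ENSG00000163931, chromosome 3, 53224707 to 53256052, minus strand) was 1347 and 1357 CPM in Lipo and 990.1 and 992 in OE (log2 -0.45, SE 0.13, edgeR adjusted p = 0.0419). TALDO1 was 138 and 139 CPM in Lipo and 100.5 and 99.7 in OE (log2 -0.47, SE 0.14, edgeR adjusted p = 0.0414). Both calls were lost without WT 2, WT 3 or any 1 of the 4 libraries compared (adjusted p = 0.0574 to 0.22 for TKT and 0.061 to 0.211 for TALDO1). PGD, of the oxidative part of the same pathway, and malic enzyme ME1 did not pass.

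FTH1 (ENSG00000167996, chromosome 11, 61959718 to 61967660, minus strand) rose from 2957 and 2963 CPM in Lipo to 4507 and 4776 in OE (log2 0.65, SE 0.13, edgeR adjusted p = 0.00458), with the call lost without Lipo 2, Lipo 3 or OE 2 (adjusted p = 0.0657 to 0.0702). FTL (ENSG00000087086, chromosome 19, 48965301 to 48966878, plus strand), at 1547 and 1548 CPM in Lipo and 1710.4 and 1708 in OE, did not pass (log2 0.14, SE 0.14, adjusted p = 0.567). SLC3A2 (ENSG00000168003, chromosome 11, 62856102 to 62888875, plus strand), the heavy chain that anchors the cystine importer and other amino acid transporters at the membrane, was 459.5 and 435 CPM in Lipo and 634 and 604 in OE. Its groups did not overlap, but it did not pass (log2 0.47, SE 0.18, adjusted p = 0.0995).

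The calls of MAFF, GSTA4 and SOD2 held under all 21 alternatives run for this comparison. Interferon-stimulated genes moved with the same libraries. All 27 tested were higher in OE, with a summed level of 15570.0 to 15710.0 CPM against 693 to 736 in Lipo. So did NF-kB target genes, of which 14 of 15 were higher, with a sum of 5614 to 5720 CPM against 1139 to 1142. SOD2 and FTH1 are known targets of NF-kB as well. The part of these programs in the OE values of the antioxidant genes was not tested.

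The choice of control mattered for this comparison. Against WT in the same fit, 9 members were higher in OE (26.5%, against 12.3% of all genes) and 2 were lower (5.88%, against 12.6%). The calls of NQO1 (log2 -0.06, SE 0.11, edgeR adjusted p = 0.725), GSR (-0.12, SE 0.14, adjusted p = 0.559), TKT (-0.01, SE 0.12, adjusted p = 0.963) and TALDO1 (-0.32, SE 0.13, adjusted p = 0.0804) were lost. The rises of HMOX1 and FTH1 were larger, at 3.003-fold (log2 1.59, SE 0.17, edgeR adjusted p = 1.06e-05) and 2.18-fold (log2 1.12, SE 0.12, adjusted p = 8.29e-06). MAFF rose 2.89-fold, SOD2 4.01-fold and NFE2L1 1.56-fold. SLC3A2 (2.50-fold), FTL (1.93-fold), MAFG (1.69-fold, adjusted p = 0.010) and PGD (1.35-fold, adjusted p = 0.0153) were called higher against WT alone. GSTA4 and CAT were called lower with either control, at log2 -1.63 and -0.52 against WT.

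**Figure D3:**
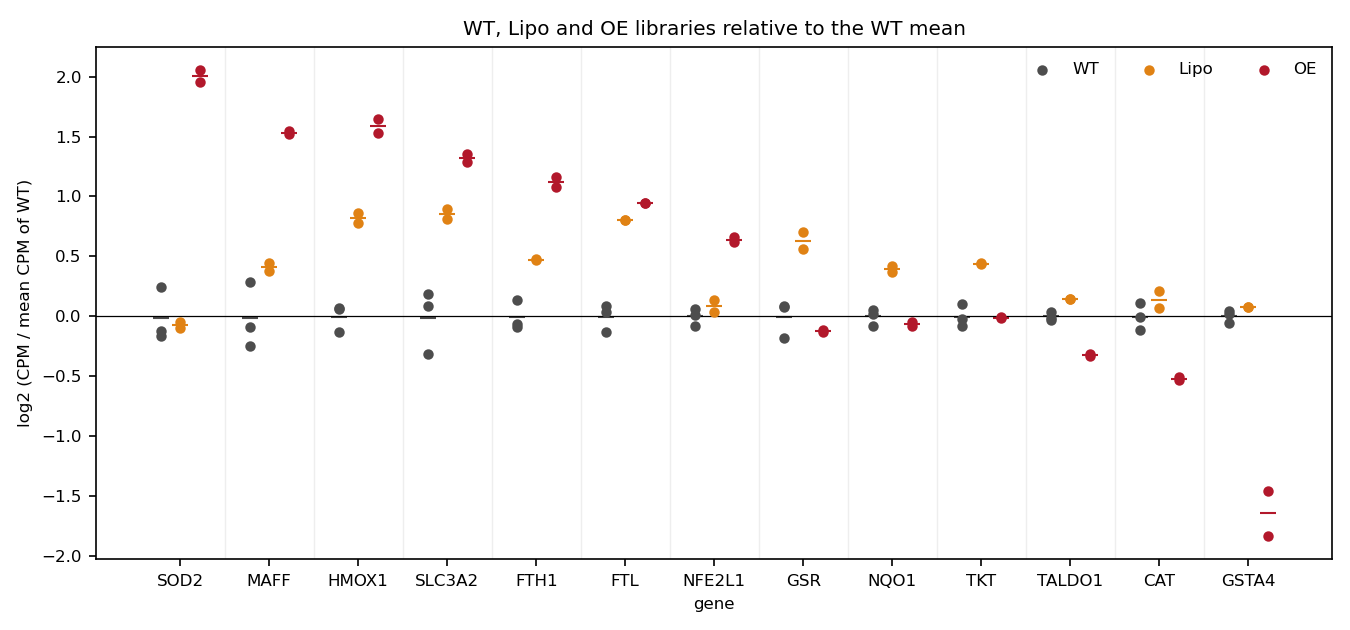
Level of 13 members in each WT, Lipo and OE library, as log2 of CPM over the WT mean (vertical axis), with 1 point per library and a line at the group mean. Lipo libraries of HMOX1, SLC3A2 and FTL sit near 0.8 and their OE libraries higher, those of GSR, NQO1 and TKT sit above 0 with OE libraries back at 0 or just below, and in OE SOD2 lies farthest above 0 and GSTA4 farthest below it.

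The Lipo and WT libraries, both labelled untreated wild type, were then compared with each other. Of the 34 members, 5 were higher in Lipo by edgeR (14.7%, against 1.32% of all genes) and 8 by DESeq2, and 0 were lower by either tool (against 2.38% of all genes by edgeR). At an unadjusted p under 0.05, 13 were higher and 0 lower, against 8.29% and 10.4% of all genes. The fitted change was above 0 for 29 of the 34, against 48.1% of all genes, with a median of 0.15 against -0.02 over all genes. SLC3A2 rose 1.81-fold, HMOX1 1.76-fold, FTL 1.74-fold, GSR 1.55-fold and FTH1 1.39-fold. Without Lipo 2 or without Lipo 3, which leaves 1 library in that group with a spread assumed to be that of the others, 0 of these calls remained. Mitochondrially encoded genes took 8.04% and 8.72% of reads in Lipo against 5.47% to 6.15% in WT, and the part of that difference in these values was not tested.

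SLC3A2 had 199, 281 and 263 CPM in WT and 459.5 and 435 in Lipo (log2 0.85, SE 0.16, edgeR adjusted p = 0.00885). HMOX1 had 23.2 to 26.6 CPM in WT and 46.1 and 43.6 in Lipo (log2 0.82, SE 0.17, edgeR adjusted p = 0.0156). FTL had 811, 909.8 and 939.7 CPM in WT against 1547 and 1548 in Lipo (log2 0.80, SE 0.13, edgeR adjusted p = 0.00351). In each of these genes both Lipo libraries were far above the highest WT library.

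GSR, at 124 and 138 CPM in Lipo, was above its WT libraries (log2 0.63, SE 0.14, edgeR adjusted p = 0.0177). FTH1 had 2347, 2044 and 2004 CPM in WT and 2957 and 2963 in Lipo (log2 0.47, SE 0.12, edgeR adjusted p = 0.0381). Its call was also lost without WT 2, WT 3, OE 1 or OE 2 (adjusted p = 0.0848 to 0.332 over the 6 libraries). Leaving out Lipo 2 or Lipo 3 gave an adjusted p of 0.0611 to 0.0864 for FTL, 0.108 to 0.110 for SLC3A2, 0.115 to 0.303 for GSR and 0.161 to 0.167 for HMOX1. TKT (log2 0.44, SE 0.12, adjusted p = 0.0630), NQO1 (0.40, SE 0.11, adjusted p = 0.0694) and PRDX2 (0.51, SE 0.15, adjusted p = 0.0795) were higher in both Lipo libraries than in any WT library without passing. NFE2L2 (0.15, SE 0.15), KEAP1 (0.01, SE 0.13) and GCLC (0.02, SE 0.14) did not pass.

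The fall of GSR in OE against Lipo and its rise in Lipo against WT use the same Lipo libraries. The values of NQO1 and TKT in the 2 comparisons share them too, so the 3 groups are given side by side. GSR averaged 84.5 ± 8.73 CPM in WT (SD, n = 3), against 131 ± 9.48 in Lipo and 77.7 ± 0.659 in OE (n = 2 each). TKT averaged 998 ± 67.7, 1352 ± 6.88 and 991 ± 1.70 CPM in the same order, and NQO1 322 ± 15.3, 424 ± 11.01 and 309 ± 5.44. For HMOX1 the levels were 25.4 ± 1.90, 44.9 ± 1.77 and 76.4 ± 4.30 CPM, and for FTH1 2132 ± 188, 2960.2 ± 4.29 and 4642 ± 191. Lipo thus lay above both other groups in the first 3 genes and between them in the last 2.

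To ask whether the labelled knockout and the TET1 transfection moved these genes differently, their effects were tested against each other. The KO effect (KO against WT) and the OE effect (OE against Lipo) use no library in common. The OE effect holds TET1 and transfection together, and the loss of TET1 in KO rests on the label. Of the 34 members, 13 differed, 8 with a higher KO effect (23.5%, against 7.16% of all genes) and 5 with a higher OE effect (14.7%, against 9.47%). A higher OE effect was found for SOD2 (log2 difference -2.13, SE 0.23, edgeR adjusted p = 1.68e-05), MAFF (-1.55, SE 0.23, adjusted p = 2.69e-04), HMOX1 (-1.13, SE 0.24, adjusted p = 0.00550), NFE2L1 (-0.88, SE 0.18, adjusted p = 0.00321) and FTH1 (-0.60, SE 0.17, adjusted p = 0.0246).

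A higher KO effect was found for GSTA4 (2.27, SE 0.31, edgeR adjusted p = 1.62e-04), GSTP1 (1.13), GSR (1.09), PRDX2 (1.00), TALDO1 (0.89), NQO1 (0.78), CAT (0.76) and TKT (0.58). NQO1 and TALDO1 were called in both comparisons, higher in KO and lower in OE. In the main fit, TXNRD1 and GPX3, which fell in KO, were not called in OE (TXNRD1 -0.30, edgeR adjusted p = 0.217, GPX3 -0.18, adjusted p = 0.4035). With only OE and Lipo fitted, both were called lower (TXNRD1 edgeR adjusted p = 2.26e-07, GPX3 0.00188), so a fall in KO alone is not shown. Their KO and OE effects did not differ by the test (TXNRD1 interval -0.68 to 0.13, GPX3 -0.55 to 0.14). The differences of CAT (adjusted p = 0.0564 to 0.121) and FTH1 (0.0777 to 0.129) were lost without any 1 of the Lipo and OE libraries, that of TKT (0.0748 to 0.128) also without WT 2, and that of GSTP1 (0.0526 to 0.0586) without Lipo 3, OE 1 or OE 2.

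The control of OE also set the size of these differences. With WT in place of Lipo, an alternative chosen after seeing the data in which the difference is that of KO and OE, NQO1 went from 0.78 to 0.39 (edgeR adjusted p = 0.0155), GSR from 1.09 to 0.46 (adjusted p = 0.0181), PRDX2 from 1.00 to 0.49 (adjusted p = 0.0198) and GSTP1 from 1.13 to 0.68 (adjusted p = 0.0162). TKT no longer passed (0.15, adjusted p = 0.372). The differences of HMOX1 (-1.95) and FTH1 (-1.07) were larger, and FTL (-0.70, adjusted p = 6.47e-04) and SLC3A2 (-1.44, adjusted p = 7.75e-06) then passed.

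**Figure D4:**
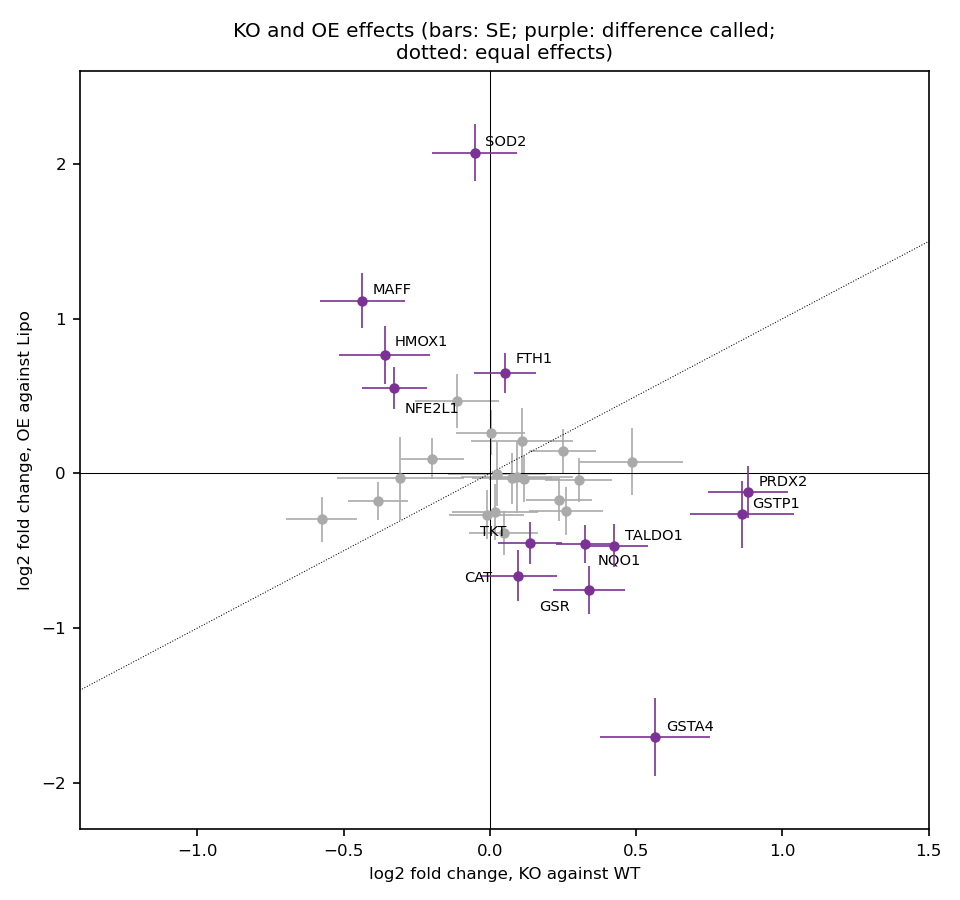
Log2 fold change in KO against WT (horizontal axis) and in OE against Lipo (vertical axis) for 32 members, with bars of 1 SE, the dotted line at equal effects and the 13 members whose effects differed in purple. HMOX1, MAFF and NFE2L1 lie at negative KO and positive OE values, and GSTA4, GSR, NQO1 and TALDO1 at positive KO and negative OE values.

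The other 17 tested members were called in none of the 3 comparisons of groups. These were NFE2L2, KEAP1, MAFG, GCLC, GCLM, GSS, GPX1, GPX2, GPX4, MGST1, TXN, SRXN1, PRDX1, PRDX6, SOD1, PGD and ME1. Leaving aside GPX2 (5 to 19 reads a library) and SRXN1 (4 to 23 reads), where a change was not detectable at this depth, their fitted changes lay between -0.31 and 0.48 in KO, -0.38 and 0.26 in OE and -0.12 and 0.55 in Lipo. Their 95% intervals reached -0.77 and 0.86 in KO and -0.69 and 0.66 in OE, so these data do not show that they were unchanged.

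The counts of related gene lists that follow are to be read against the share of all genes called, which was 5.13% higher and 7.45% lower in KO, 6.79% and 5.53% in OE, and 1.32% and 2.38% in Lipo. The lists can share genes. TXNIP counts among both the NRF2 targets and the thioredoxin genes, and IDH1 among both the NRF2 targets and the NADPH-producing enzymes.

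Other regulators of NRF2 gave 1 gene higher and 4 lower of 15 tested in KO, 2 and 0 in OE, and 1 and 0 in Lipo. NFE2L3, an NRF2 relative, had no reads in KO against 3.59 ± 0.270 CPM in WT (n = 3), which makes it at least 85.6-fold lower by a floor of 3 reads over the group. In OE it rose 7.49-fold over Lipo, to 18.4 and 15.2 CPM (log2 SE 0.32, edgeR adjusted p = 5.94e-05). BTRC, part of a ligase that degrades NRF2, fell in KO (log2 -0.61, SE 0.15). NFE2 was higher in KO (1.82) and in Lipo (2.04) than in WT, where it had only 0.61 to 1.30 CPM. SQSTM1, which captures KEAP1, rose in OE (1.72, SE 0.49) from a listed level of only 1.52 ± 0.0872 CPM in Lipo. Its OE libraries differed, at 7.20 CPM in OE 1 and 2.85 in OE 2.

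Of 29 other NRF2 target genes tested, 2 were higher and 5 lower in KO, 3 and 5 in OE, and 2 and 1 in Lipo. These were 6.90% and 17.2% in KO, 10.3% and 17.2% in OE, and 6.90% and 3.45% in Lipo. BLVRA, which turns the biliverdin made by HMOX1 into bilirubin, fell 3.58-fold in KO (log2 SE 0.23, edgeR adjusted p = 1.03e-04), PTGR1 fell 2.05-fold and the exporter ABCC3 1.65-fold. TXNIP, which binds thioredoxin, rose 3.29-fold in OE (log2 SE 0.14, edgeR adjusted p = 1.08e-06) and was lower in Lipo than in WT (log2 -0.90). TRIM16 rose (1.17) and the haem-synthesis enzyme FECH fell (-0.78) in OE. EPHX1 (0.62) and IDH1 (0.74) were higher in Lipo than in WT.

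Of 9 other glutathione transferases tested, 2 were higher and 1 lower in KO. GSTM1 fell 8.86-fold in KO, from 7.39 ± 0.740 to 0.833 ± 0.294 CPM (n = 3 each, edgeR adjusted p = 2.18e-06), while MGST2 rose 1.67-fold and MGST3 1.33-fold. Reads of mu-class transferases can be shared between near-identical copies. Of 15 genes of glutathione breakdown and glutaredoxins, GGCT (2.03-fold) and ESD (1.51-fold) rose and HAGH fell (1.62-fold) in KO, with 3 higher and 1 lower in all, LANCL1 fell in OE (1.72-fold) and CHAC1, which degrades glutathione, was 3.001-fold higher in Lipo than in WT (log2 SE 0.25, edgeR adjusted p = 0.00341).

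Of 14 other thioredoxin, peroxiredoxin and methionine sulfoxide genes, 1 was higher and 2 lower in KO, 2 and 2 in OE, and 0 and 1 in Lipo. NXN, nucleoredoxin, fell 5.38-fold in KO, from 40.1 ± 3.52 to 7.45 ± 1.07 CPM (n = 3 each, edgeR adjusted p = 6.81e-08), and rose 1.60-fold in OE. The mitochondrial thioredoxin TXN2 rose 1.35-fold in KO, and SESN3 fell in KO (log2 -0.71) and in OE (-1.03). Of 14 other NADPH-producing enzymes tested, IDH2 (-0.71) and IDH1 (-0.60) fell in OE, and IDH1 (0.74) and MTHFD2 (0.51) were higher in Lipo than in WT.

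Iron handling gave 1 gene higher and 1 lower of 17 in KO, 0 and 3 in OE, and 0 and 1 in Lipo. ACO1, which encodes an iron regulatory protein that binds the ferritin hairpins, fell 2.14-fold in KO (log2 SE 0.14, edgeR adjusted p = 1.12e-04) and 3.13-fold in OE (SE 0.18, adjusted p = 1.69e-05). VDAC3 rose in KO (0.51). The iron exporter SLC40A1 fell 2.11-fold in OE and was 1.59-fold lower in Lipo than in WT. SLC7A11, the light chain that pairs with SLC3A2 to import cystine, fell in OE from 162 and 165 CPM in Lipo to 99.7 and 95.7 (log2 -0.74, SE 0.22, edgeR adjusted p = 0.0423), and stood at 70.6, 118 and 121 in WT.

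Oxidant-producing enzymes gave 1 higher and 1 lower of 9 tested in KO. Xanthine dehydrogenase XDH fell 4.08-fold in KO and rose 1.84-fold in OE, NCF4 rose 2.29-fold in KO, and MAOA fell in OE (-0.80). NCF4 was low, at 1.62 to 2.14 CPM in WT and 2.38 to 5.37 in KO. Of 17 selenoprotein genes, SELENOP rose in KO (log2 1.75, SE 0.29) and fell in OE (-2.74, SE 0.44), SEPHS2 fell in KO (-0.48), and SELENOS rose in OE (1.02), with 1 higher and 1 lower in each of these comparisons. SELENOP was low, at 1.60 to 1.99 CPM in WT, 2.12 and 3.05 in Lipo, and 0.49 and 0.28 in OE.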

How the data were processed

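Per the labels' protocols, 1 µg of total RNA was made into libraries with a stranded total RNA kit. The authors deposited unnormalized counts of reads for each gene, all of them whole numbers. The tools listed by the submitters' processing notes, without role or order, are featureCounts, HISAT2 2.1.0, edgeR and FastQC, with GRCh38 as the build. The count table had 62710 entries, of which 1 had no values, and 2 columns that matched no sample were not used.

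The counts were tested in R 4.3.3 with edgeR 4.0.16. The filter filterByExpr on the 4 groups kept 15832 genes, TMM factors scaled the libraries, and 1 quasi-likelihood fit (robust) held all 10 libraries, leaving 6 residual degrees of freedom. Tests were two-sided. The edgeR p-values were adjusted by Benjamini-Hochberg over all genes at 0.05. DESeq2 1.42.0 and the other alternatives are given at the end. The test was run on simulated data in which each gene had the same spread in all groups. It recovered 28.6% of 1.5-fold changes for KO, 14.3% for OE and 14.9% for Lipo. For 2-fold changes the shares were 76.5%, 72.7% and 59.7%. Most changes of 1.5-fold would thus not be called. Positions and exon lengths came from GENCODE 29 and promoter windows from RefSeq. The members, 16 gene lists and tests were chosen with earlier results of these data known. All members are accounted for, and from each other list up to 3 called genes with the smallest p per comparison could be named. A result for the list of oxidant-producing enzymes in OE is not reported here. The 95% intervals of fold changes come from the fit. The floor of 3 reads covers counting error only.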

Additional observations from a re-analysis of the deposited data

Results flagged for a closer look

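For 13 members the KO effect (KO against WT) and the OE effect (OE against Lipo) differed by a contrast in the edgeR fit, a test of the difference itself. The KO effect minus the OE effect, on the log2 scale, was -0.88 for NFE2L1, -1.55 for MAFF, -1.13 for HMOX1, -2.13 for SOD2 and -0.60 for FTH1. It was 0.78 for NQO1, 1.09 for GSR, 1.13 for GSTP1, 2.27 for GSTA4, 1.00 for PRDX2, 0.76 for CAT, 0.58 for TKT and 0.89 for TALDO1. The differences of NFE2L1, MAFF, NQO1, HMOX1, GSR, GSTA4, PRDX2, SOD2 and TALDO1 (9 of 13) passed the test under all 19 alternatives run for them, but the sizes depended on the control of OE. With WT in place of Lipo, chosen after seeing the data, the difference was 0.39 for NQO1, 0.46 for GSR and 0.49 for PRDX2. Those of GSTP1, CAT, TKT and FTH1 did not pass under every alternative.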

How the results depend on the processing

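Over 23 alternatives, 2712 values of members were compared with those above. The direction and side of the threshold were kept in 2519, 102 calls were lost, 90 were gained with the direction kept, and 1 value changed sign as it became called. This was the difference of FTL, which was 0.11 and not called, and -0.70 with WT as the control of OE. Calls held under every alternative for 3 of 6 members in KO, 3 of 11 in OE, 0 of 5 in Lipo and 9 of 13 differences. Leaving out 1 library at a time moved the members called higher and lower to 2 to 5 and 1 to 3 in KO, 2 to 6 and 1 to 6 in OE, 0 to 9 and 0 in Lipo, and 5 to 10 and 4 to 6 for the difference. The lowest counts came without a Lipo or OE library, or, for KO, also without WT 2 or WT 3, and the highest in Lipo came without KO 1 (9) or KO 3 (8). Without a Lipo or OE library, the 1 left in its group is assumed to vary like the others. In a fit of only the groups compared, KO had 2 members higher and 1 lower, and OE had 9 and 14. All 5 wild-type-labelled libraries as control gave 5 lower in KO and 2 lower in OE, and WT as control gave 9 higher and 2 lower in OE and, chosen after seeing the data, 9 lower for the difference. DESeq2 called 8 higher in Lipo. Leaving out WT 1 and KO 1 together, chosen after seeing the data, gave 12 higher in Lipo. All genes called higher in Lipo moved too, from 209 to between 163 and 513 over the alternatives that kept single libraries in. The counts of members in Lipo are to be read beside that.

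Same-numbered WT and KO libraries deviated together with r = 0.328, 0.0577 and 0.185, against -0.238 to 0.092 for those with different numbers. The main fit did not take the numbers as pairs, and these values do not settle whether they are. WT 2 correlated better with KO 3 (0.092) than with KO 2. With the replicate number as a block in all 10 libraries, 4 members were lower in KO, and the other counts of members stayed within 1.5 times. With the block in WT and KO alone, 7 were higher and 4 lower.

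Counts over all genes also moved. In KO, 812 higher and 1180 lower became 485 and 731 with only the groups compared and 1584 and 1784 with the block in WT and KO alone. In OE, 1075 and 875 became 2944 and 2720 with only the groups compared. In Lipo, 209 and 377 ranged from 12 to 513 and from 22 to 644. Leaving out 1 library gave 394 to 996 and 731 to 1337 in KO, 418 to 1421 and 218 to 1236 in OE, and 510 to 1324 and 850 to 1699 against 1133 and 1499 for the difference, which WT as the control of OE took to 2886 and 3035. No scaling moved the median of all genes by over 0.1. Depth limits GSTM3, GPX2 and SRXN1.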
